A study of Mus musculus with 16 samples.

Results

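Scavenger receptors and C-type lectins are surface proteins through which macrophages bind modified lipoproteins, microbial glycolipids and glycans, and debris of dying cells. The genes described here were the members of a list of 9 whose symbols were in the series' table, which were 7 of its 13832 genes: the scavenger receptors Cd36, Msr1 and Scarb1, the C-type lectins Clec4e, Clec4d and Clec4n, and Cd101. Marco and Clec7a were not analysed here. Cd101 encodes an immunoglobulin-superfamily protein, neither a scavenger receptor nor a lectin, and is described as a listed gene under its own name.

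The study followed ribosome density in RAW264.7 cells, a transformed mouse macrophage-like line, exposed to lipopolysaccharide (LPS) at 100 ng/ml. Untreated cells were sampled at 0 min, and LPS-treated cells at 15, 30, 45, 60, 75 and 90 min and at 16 h. Each time point gave 1 input library, made from cytoplasmic RNA fragmented by alkali, and 1 footprint library, made from the RNA that ribosomes protect from RNase I in the monosome fractions of the same lysate, with cycloheximide present. The 16 libraries therefore formed 16 groups of 1, and the labels name no genotype, transgene or other agent that would set the groups apart. Because the only untreated sample was the 0 min culture, LPS cannot be told apart from handling or time in culture.

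Every library held between 6702930 and 6702932 counts, so the totals carry no information on the original depth. The macrophage marker genes summed to 28825 input counts in untreated cells, to 26494 to 29119 at 15 to 90 min and to 27484 at 16 h, and 1 of the 16 markers, the lysozyme gene Lyz1, stayed under 10 counts. Their footprints summed to 44517 in untreated cells, to 35326 to 39991 at 15 to 90 min and to 37787 at 16 h. Within those sums 7 of the 14 tested markers were higher in input at 16 h and 4 lower, where 25.2% of all tested genes were higher and 30.7% lower. Among them were Adgre1 at 1.65 ± 0.12 (adjusted p = 3.7e-07) and Csf1r at -1.18 ± 0.097 (adjusted p = 1.4e-06) on the log2 scale. Of 10 dendritic cell markers, 9 stayed under 10 input counts in every library and all 10 stayed under 10 footprint counts. At 16 h the fibroblast and epithelial list reached 43 input counts against 0 in untreated cells, the granulocyte and mast cell list 53 against 9, and the lymphocyte list 122 against 40. Most of these 16 h counts came from 1 gene in each list: Lum at 37, S100a8 at 51 and Lck at 88. Any part of other cell types in the results was not tested.

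Class A and class B scavenger receptors take up modified lipoproteins, and several also carry fatty acids or cholesterol across the membrane. C-type lectins such as Clec4e (Mincle), Clec4d (MCL) and Clec4n (dectin-2) pair with the Fc receptor gamma chain, encoded by Fcer1g, and signal through Syk and Card9 towards NF-kB. In macrophages both families are known to change with activation state, and Mincle is a known LPS-inducible receptor.

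The 3 lectin genes are neighbours on chromosome 6, in the mm10 (GRCm38) build named for these data. Clec4n lies at chr6:123229843-123247024 and Clec4d at chr6:123262107-123275268, both on the plus strand, and Clec4e lies at chr6:123281789-123289871 on the minus strand. The gaps between them are 15.1 kb and 6.5 kb. The bases around the start codon and the 250 bases before the start of transcription are shown because footprints read translation from the first and changes in RNA bear on the second. Start contexts run 5′ to 3′ on the coding strand, from GENCODE vM21 transcripts, with the start codon in capitals.
Clec4e: aaaggaagaATGa
Clec4d: acacacataATGt
Clec4n: acctcaacaATGg
Cd36: acgaggagaATGg
Scarb1: cacgcggacATGg
Cd101: ccggtccagATGg
A purine stood at the third base before the start codon in 5 of these 6 genes, all but Cd101, against 83.9% of 20696 genes.

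The promoters of Clec4e, which rose first, of its neighbour Clec4d, which rose later, and of Cd101, which fell most, are given from RefSeq on GRCm38.p6, 5′ to 3′ on the strand of the gene. They cover chr6:123289872-123290121 on the minus strand, chr6:123261857-123262106 on the plus strand and chr3:101029554-101029803 on the minus strand. Capitals mark matches to the searched motifs.
Clec4e: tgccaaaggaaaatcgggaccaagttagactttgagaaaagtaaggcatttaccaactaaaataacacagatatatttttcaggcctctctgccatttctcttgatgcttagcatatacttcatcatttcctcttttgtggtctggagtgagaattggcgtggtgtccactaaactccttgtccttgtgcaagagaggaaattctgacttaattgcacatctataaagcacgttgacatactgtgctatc
Clec4d: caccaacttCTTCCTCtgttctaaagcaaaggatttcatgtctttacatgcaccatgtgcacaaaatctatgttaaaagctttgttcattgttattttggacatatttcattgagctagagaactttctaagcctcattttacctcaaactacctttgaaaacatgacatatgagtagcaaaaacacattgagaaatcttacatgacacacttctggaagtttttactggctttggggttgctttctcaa
Cd101: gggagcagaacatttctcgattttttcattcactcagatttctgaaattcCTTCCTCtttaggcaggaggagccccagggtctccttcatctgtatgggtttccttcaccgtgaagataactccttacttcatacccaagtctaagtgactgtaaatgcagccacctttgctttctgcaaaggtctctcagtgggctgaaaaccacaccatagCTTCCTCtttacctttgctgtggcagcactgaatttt
Both strands were searched for TGANTCA (AP-1, found in 6.9% of 27025 promoters of the same length), GAGGAAG (PU.1, 10.4%), AGGTCA (a nuclear receptor half-site, 13.8%) and the NF-kB consensus (3.8%). The Clec4d window held 1 PU.1-type match, 241 bases before the start, and the Cd101 window held 2, at 200 and 37 bases. The bases just after the start were found in the GENCODE transcripts of Clec4e and Cd101 but not in those of Clec4d. The Clec4d window therefore rests on a start that those transcripts did not match. The Clec4e window held 0 matches, which says only that those letters are not in that window. No match overlapped another.

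Clec4e, the receptor for mycobacterial cord factor, rose most steeply within 90 min. Input counts were 117, 116, 451, 1014, 1398, 1497 and 1665 at 0, 15, 30, 45, 60, 75 and 90 min, and 1809 at 16 h. Footprint counts at the same times were 128, 121, 201, 916, 1767, 2080, 2299 and 2500. Both materials were level at 15 min. By 30 min input was 3.84-fold of untreated (95% counting interval 3.13 to 4.75) and footprints were 1.71-fold (1.37 to 2.16). Both were high from 45 min and similar at 90 min and 16 h. At 90 min input stood at 15.6-fold of untreated (95% counting interval 13 to 19) and footprints at 21.8-fold (18.3 to 26.3). Ratios of single libraries here and below have no replicate check, and their intervals cover counting error only.

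Tests used edgeR's quasi-likelihood test on the 9529 genes that passed the count filter, with a smooth curve for the first 90 min and 16 h fitted on its own. Adjusted p-values are Benjamini-Hochberg values over all those genes, the threshold was 0.05, and the scatter of the earlier libraries had to stand for that of the lone 16 h library. Errors are standard errors from the scatter about the curve, and changes are on the log2 scale, relative to the typical gene. Within 90 min the p-value is from a joint test of all terms of the curve. The size and error printed beside it are those at the sampled time of largest change. In bulk libraries, fewer cells of a type and less RNA per cell cannot be told apart. The fitted change of Clec4e within 90 min was 4.57 ± 0.33 for input RNA (adjusted p = 8.3e-06) and 5.41 ± 0.49 for footprints (adjusted p = 4.8e-05). The fitted value at 0 min lay below the measured one, so both sizes exceed the log2 ratios of the 90 min to the untreated library, which were 3.97 and 4.45. They were 5.82 and 7.1 without the untreated library, footprints were 6.06 without the 90 min library and 4.77 with a cubic curve, and every one of these passed the test. The sizes ranked 50th and 42nd from the top among 9529 genes. At 16 h its change from 0 min was 4.62 ± 0.36 (adjusted p = 8.6e-07) and 5.12 ± 0.53 (adjusted p = 9.2e-06), beside measured log2 ratios of 4.02 and 4.39. Without the untreated library these changes were 5.93 and 6.95, and on a straight line in time the input change was 3.72, all past the threshold. Between 90 min and 16 h the difference was 0.05 ± 0.3 for its input (adjusted p = 0.9) and -0.29 ± 0.47 for its footprints (adjusted p = 0.64), and neither passed the test. The direction of both depended on the shape of the curve.

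**Figure D1:**
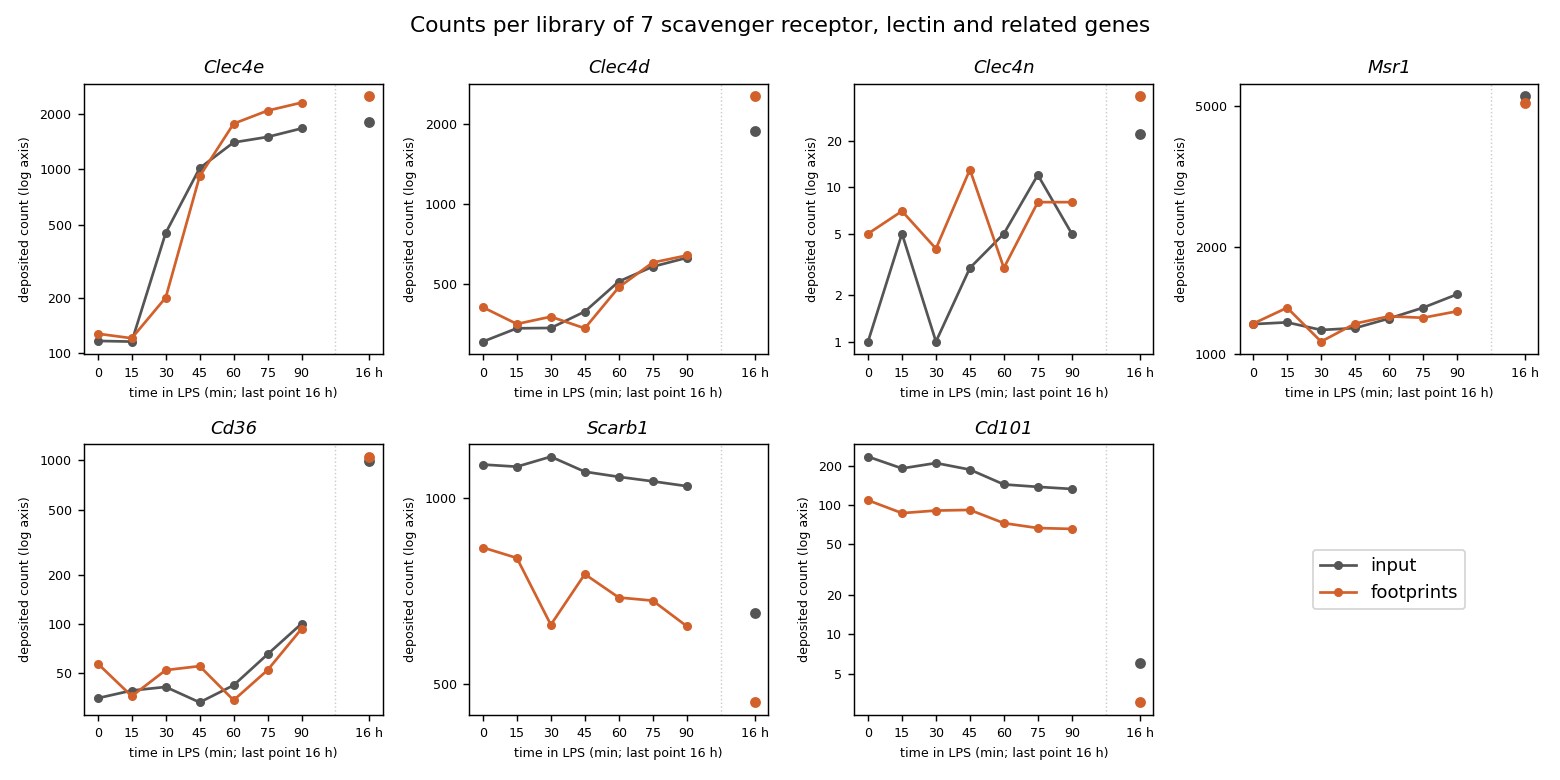
Deposited counts (log axis) of 7 genes in each of 8 input (grey) and 8 footprint (orange) libraries against time in LPS, with 16 h drawn apart as a separate point. Clec4e climbs between 30 and 90 min, Clec4d, Msr1 and Cd36 are highest at 16 h, and Cd101 and Scarb1 are lowest there.

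Clec4d, which pairs with Mincle, rose later and less within 90 min. Its input counts were 303, 340, 341, 393, 510, 580, 626 and 1873 in the same order of times. Its footprint counts were 408, 353, 376, 340, 485, 601, 639 and 2546. Footprints were near the untreated value up to 45 min and higher from 60 min. Input was already higher at 45 min, at 1.33-fold of untreated (1.14 to 1.55), beside 0.92-fold for footprints (0.794 to 1.06). Both were highest at 16 h. Input rose by 1.28 ± 0.11 within 90 min (adjusted p = 2.6e-05) and by 2.74 ± 0.12 at 16 h (adjusted p = 8.7e-09). Footprints rose by 1.09 ± 0.14 (adjusted p = 0.00027) and 2.81 ± 0.15 (adjusted p = 4.7e-08). The further rise from 90 min to 16 h was 1.45 ± 0.11 for input RNA (adjusted p = 1.2e-06) and 1.71 ± 0.15 for footprints (adjusted p = 2.5e-06).

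Clec4n, the dectin-2 gene that recognises fungal mannans, missed the count filter. Its input counts were 1, 5, 1, 3, 5, 12, 5 and 22, and its footprint counts 5, 7, 4, 13, 3, 8, 8 and 39. The 16 h libraries held the most counts in both materials. At 16 h footprints stood at 8.35-fold of untreated (3.29 to 27.1), and input at 23.1-fold (3.74 to 955) on 1 untreated count. In a fit of all 13832 genes with no filter, the change at 16 h was 3.82 ± 0.93 for input RNA (adjusted p = 0.0039) and 2.91 ± 0.61 for footprints (adjusted p = 0.0019). Of the 29-base words of its coding sequence 94.7% were unique to it, and the rest were shared with 2 other genes, mainly Gm44147. The other members' words were all unique.

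Msr1, the class A scavenger receptor at chr8:39543232-39642750, was the member with the highest untreated counts. Its input counts were 1211, 1225, 1166, 1180, 1256, 1347, 1469 and 5333. Its footprint counts were 1215, 1347, 1081, 1215, 1274, 1262, 1316 and 5083. Values lay close together up to 90 min and were several times higher at 16 h. Input rose by 0.41 ± 0.073 within 90 min (adjusted p = 0.0018), while the footprint value of 0.35 ± 0.11 did not pass (adjusted p = 0.089). At 16 h input rose by 2.21 ± 0.082 (adjusted p = 3.2e-09) and footprints by 2.13 ± 0.13 (adjusted p = 1.1e-07).

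Cd36, a class B receptor for oxidised lipoproteins and long-chain fatty acids at chr5:17781690-17888959, was low until 75 min. Its input counts were 35, 39, 41, 33, 42, 65, 100 and 992, and its footprint counts 57, 36, 52, 55, 34, 52, 93 and 1054. Among the first 90 min only the 90 min libraries stood clearly above the others in both materials, and the 16 h libraries were far higher. At 16 h input stood at 29.8-fold of untreated (21.3 to 43) and footprints at 19.8-fold (15.2 to 26.3). The fitted changes at 16 h were 4.74 ± 0.18 (adjusted p = 3.2e-09) and 4.33 ± 0.26 (adjusted p = 1.1e-07). Within 90 min input rose by 1.47 ± 0.21 (adjusted p = 0.00033) and footprints by 0.86 ± 0.3 (adjusted p = 0.038). Without the 90 min library the footprint value was 0.25 (adjusted p = 0.91), while the input value stayed near its size at 1.36 and just missed the threshold (adjusted p = 0.052). The early footprint call was also lost with total counts (0.58, adjusted p = 0.051), with a straight line in time (0.92, adjusted p = 0.13) or in its square root (0.68, adjusted p = 0.089), and without the untreated (0.91, adjusted p = 0.052), 15 min (0.70, adjusted p = 0.085) or 75 min library (0.96, adjusted p = 0.055).

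Scarb1, the class B receptor for high-density lipoprotein at chr5:125277087-125341094, fell at 16 h. Its input counts were 1135, 1126, 1169, 1105, 1084, 1066, 1047 and 651. Its footprint counts were 832, 800, 623, 753, 690, 682, 620 and 466. Input was level to 90 min, and the 16 h library was the lowest of each material. At 16 h input fell by 0.72 ± 0.088 on the log2 scale (adjusted p = 3.5e-05) and footprints by 0.71 ± 0.14 (adjusted p = 0.0014). Within 90 min the values were 0.02 ± 0.072 for input RNA (adjusted p = 0.97) and -0.08 ± 0.11 for footprints (adjusted p = 0.85), and the input sign turned with scaling by total counts (-0.13).

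Cd101, described as an inhibitor of T cell activation, lies at chr3:100992189-101029553 and fell most. Its input counts were 234, 190, 209, 186, 143, 137, 132 and 6, and its footprint counts 108, 86, 90, 91, 72, 66, 65 and 3. Both declined through 90 min and were almost gone at 16 h. At 16 h input stood 37.1-fold below untreated (16.8 to 102) and footprints 33.6-fold below (11.2 to 166), on 6 and 3 counts. The fitted falls were -5.14 ± 0.32 (adjusted p = 1.7e-07) and -4.94 ± 0.43 (adjusted p = 2.3e-06), the 4th and 6th lowest of 9529 genes. Within 90 min input fell by 0.70 ± 0.15 on the log2 scale (adjusted p = 0.013), a call lost at a similar size with DESeq2 (-0.73, adjusted p = 0.053) and without the untreated (-0.63, adjusted p = 0.066) or 75 min library (-0.67, adjusted p = 0.053). The early footprint change, -0.44 ± 0.19, had an adjusted p of 0.27, and passed with scaling by total counts (-0.71, adjusted p = 0.039).

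Of the 6 members tested, 4 rose and 1 fell in input within 90 min, where 26.4% of all tested genes were called, 15.9% higher and 10.5% lower. In footprints 3 members rose and 0 fell, against a background of 20.5% called, 12.5% higher and 7.97% lower. At 16 h 4 members rose and 2 fell in each material. The background there was 55.9% in input, 25.2% higher and 30.7% lower, and 50.1% in footprints, 25.7% higher and 24.4% lower. From 90 min to 16 h 3 members rose and 2 fell in each material. The background there was 53.9% in input, 22.7% higher and 31.2% lower, and 50.7% in footprints, 25% higher and 25.7% lower. The median input change of the members was 0.85 within 90 min and 2.47 at 16 h, beside -0.02 and -0.07 over all genes. The members were chosen with earlier results of these data known. Setting them beside all genes therefore describes them and does not test them as a set. Together the 7 genes took 0.0453% of input counts in untreated cells, 0.0753% at 90 min and 0.159% at 16 h, and of footprints 0.0411%, 0.0752% and 0.174%.

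**Figure D2:**
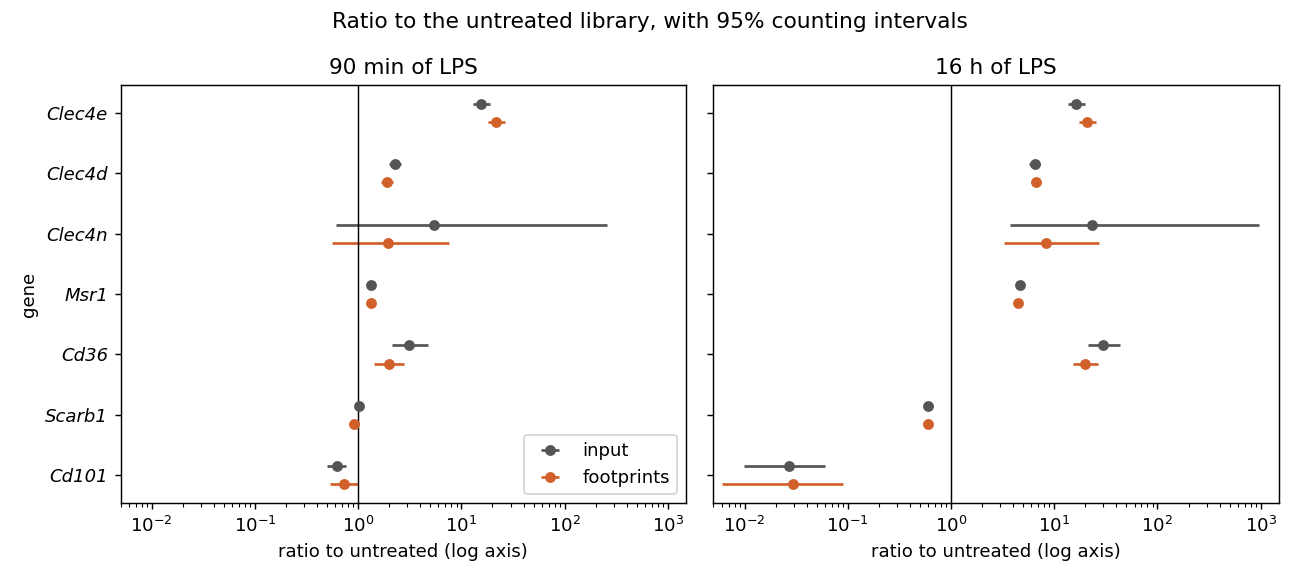
Ratio to the untreated library (log axis) of 7 genes in input (grey) and footprints (orange) at 90 min and 16 h, with 95% counting intervals as bars. Clec4e stands highest at 90 min, at 16 h Cd36 stands highest in input at 29.8 and close to Clec4e in footprints (19.8 and 20.9), and Cd101 stands far below 1 at 16 h.

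Per kilobase of coding sequence, which allows levels to be set side by side between genes, Msr1 led in untreated footprints at 129 CPM per kb (library-scaled counts per kb; 121 to 136). Clec4d followed at 90.3 (81.8 to 99.5) and Scarb1 at 79.1 (73.8 to 84.6), with intervals that do not overlap those of Clec4e at 29 (24.2 to 34.5). Cd36 at 5.86 (4.44 to 7.6) and Cd101 at 5.09 (4.18 to 6.15) could not be ordered by their intervals, and Clec4n was at 1.16 (0.376 to 2.7). At 90 min Clec4e led at 633, and Clec4d at 171 and Msr1 at 169 were next. At 16 h Clec4e at 606 (583 to 630), Clec4d at 603 (580 to 627) and Msr1 at 577 (561 to 593) had overlapping intervals, ahead of Cd36 at 116, Scarb1 at 47.6, Clec4n at 9.68 and Cd101 at 0.151.

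**Figure D3:**
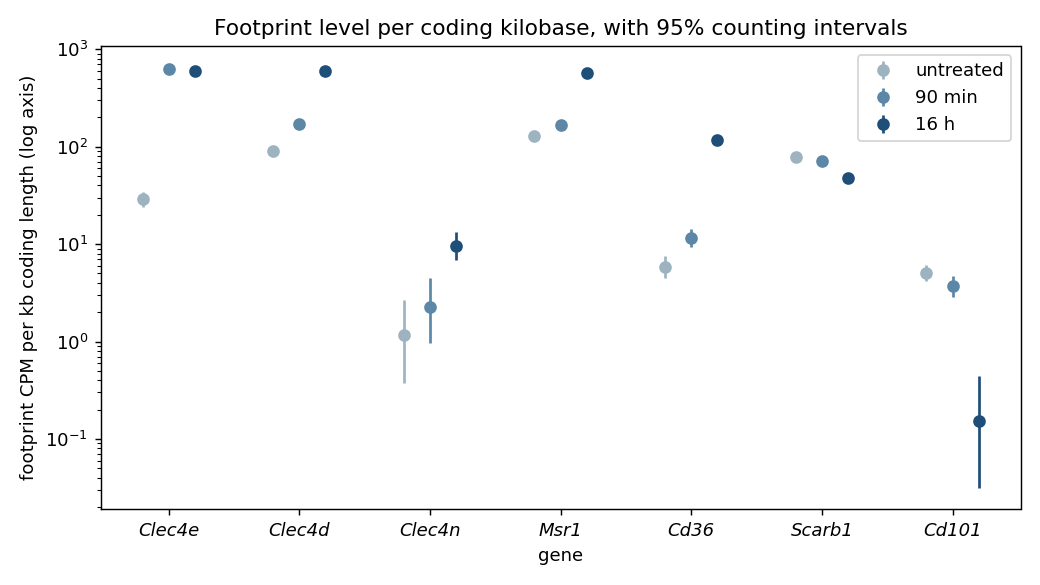
Footprint CPM per kb of coding length (log axis) of 7 genes in the untreated, 90 min and 16 h libraries, with 95% counting intervals as bars. At 16 h Clec4e, Clec4d and Msr1 lie together between 577 and 606, and Cd101 lies lowest at 0.151.

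Ribosome density, footprints per input relative to the typical gene, was tested with input and footprints of a time point as a pair. For Clec4e the density ratio was 1.2 (0.925 to 1.55), 1.19, 0.535 (0.451 to 0.633), 1.06, 1.51, 1.65, 1.67 (1.57 to 1.78) and 1.54 from 0 min to 16 h. The 30 min pair was low and the pairs from 60 min were high. At 30 min the log2 difference from untreated was -1.16, and 0.84% of 9529 genes were lower, a description of single libraries. The fitted change within 90 min, 0.96 ± 0.33, did not pass (adjusted p = 0.2). With a cubic curve the largest excursion was -0.82 (adjusted p = 0.0026), which turned its direction, and without the 30 min pair it was 0.67 (adjusted p = 0.041).

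Of the 6 members, 0 passed edgeR's test of a density change within 90 min, where 1.25% of all genes did, 1.11% higher and 0.136% lower. At 16 h 0 members passed, where 0.399% of all genes did, 0.304% higher and 0.0944% lower. At an unadjusted p under 0.05 the counts were 1 and 0, and DESeq2 called 0 in both. The other fitted changes within 90 min lay between -0.62 ± 0.35 for Cd36 (adjusted p = 0.79) and 0.26 ± 0.23 for Cd101 (adjusted p = 0.88). At 16 h they lay between -0.43 ± 0.33 for Cd36 (adjusted p = 0.69) and 0.65 ± 0.37 for Clec4e (adjusted p = 0.58). In single pairs set against untreated, Cd36 also lay low at several times. The share of genes below it was 2.01% at 15 min, 1.56% at 60 min, 1.4% at 75 min, 5.09% at 90 min and 2.94% at 16 h. At 30 and 45 min the share was 23.7% and 67.7%. All these rest on the untreated pair, with 35 input and 57 footprint counts. Over all genes the count of density calls within 90 min was 119, 308 without the 30 min pair and 0 without the untreated pair.

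Averaged over the 8 pairs, density lay above the typical gene for 4 members and below it for 2, where 85.2% of all genes were called, 43.7% higher and 41.5% lower. A call for all 6 members is therefore near the background. Cd101 was lowest at -0.86 ± 0.072 (adjusted p = 3.3e-09), then Scarb1 at -0.40 ± 0.044 (adjusted p = 1.5e-07). Clec4e at 0.38 ± 0.12 (adjusted p = 0.0093), Clec4d at 0.34 ± 0.058 (adjusted p = 3.6e-05), Cd36 at 0.30 ± 0.1 (adjusted p = 0.011) and Msr1 at 0.19 ± 0.039 (adjusted p = 0.00028) were higher. With total counts the values of Clec4e, Cd36 and Clec4d were 0.14, 0.10 and 0.12 and missed the threshold (adjusted p = 0.29, 0.4 and 0.11), and Msr1 turned to -0.03. The call for Clec4e was also lost with DESeq2 (0.31, adjusted p = 0.13) and with no pairing (adjusted p = 0.068).

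**Figure D4:**
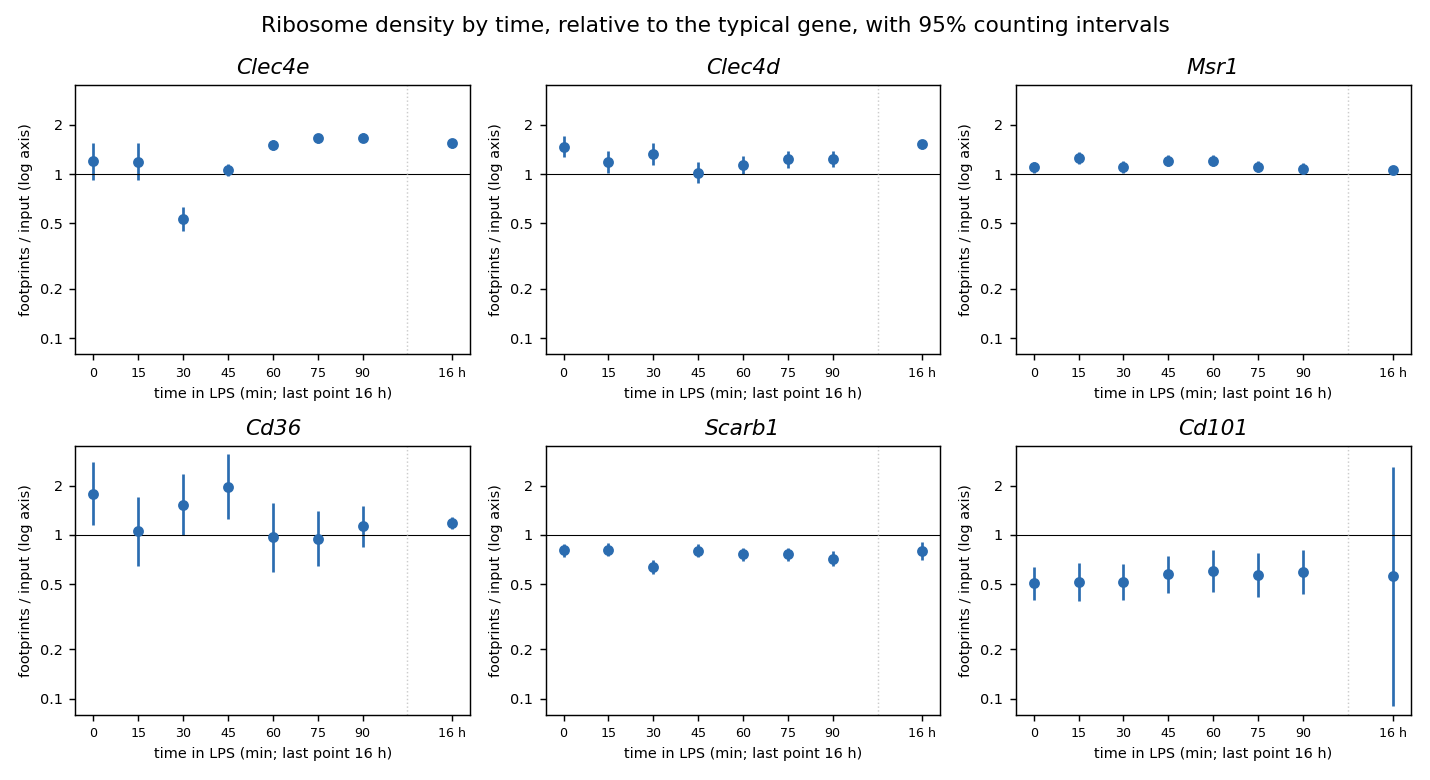
Footprints per input relative to the typical gene (log axis) in each of 8 time points for 6 genes, with 95% counting intervals as bars and a line at 1. Clec4e is lowest at 30 min at 0.535 and highest at 90 min at 1.67, and Cd101 stays below 1 at every time, with a wide interval at 16 h.

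The genes most alike each member were taken by Pearson correlation over 16 libraries on log2(CPM + 1), centred within each material, where the libraries share the 16 h step. For Clec4e they were Cflar, Traf1 and Marcksl1 (0.988 to 0.989). For Cd36 they were Wfdc17, Wars and Kctd12 (0.99 to 0.994), for Msr1 Ifih1, Adam8 and Cd53 (0.993 to 0.994), and for Clec4d Afp, Glrx and Rhoc (0.99 to 0.992). For Scarb1 they were Retsat, Tmem97 and Serinc3 (0.985 to 0.99), and for Cd101 Dtymk, Kif22 and Ranbp3l (0.992 to 0.996). Without the 16 h libraries the 3 values for Cd101 were 0.85, 0.73 and 0.7 over 14 libraries, while that of Cflar with Clec4e was 0.99. Among the members, Clec4e correlated least with the rest, at 0.68 with Clec4d and 0.49 with Cd36, whereas Cd36 and Msr1 reached 0.97.

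Among 33 tested genes of lectin signalling, 15 were higher and 7 lower in input RNA at 16 h, and 14 were higher and 6 lower in footprints, with medians of 0.38 and 0.32 beside -0.07 and 0 over all genes. Of all tested genes 25.2% were higher and 30.7% lower in input at 16 h, and 25.7% and 24.4% in footprints. These shares are the background for each list that follows. The lists, too, were chosen with earlier results known, so the shares describe them and do not test them. Without the untreated library the falls in input numbered 4 and the rises in footprints 8. The kinase gene Lyn (1.36 ± 0.11 in input, adjusted p = 8.6e-07) and the adaptor gene Lcp2 (1.66 ± 0.11, adjusted p = 2.2e-07) rose. The partners of the lectins, named for their role, also rose in input at 16 h: Fcer1g by 0.76 ± 0.11 (adjusted p = 0.00016), Syk by 0.44 ± 0.12 (adjusted p = 0.0077) and Card9 by 0.51 ± 0.1 (adjusted p = 0.0014). Tyrobp, the other adaptor of this kind, fell by 0.70 ± 0.084 on the log2 scale (adjusted p = 2.8e-05).

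Among 13 other scavenger receptors 5 rose and 2 fell at 16 h in each material, with medians of 0.14 and 0.19, where 55.9% and 50.1% of all genes were called. They included Itgav, an integrin chain of apoptotic cell uptake (1.62 ± 0.098 in input, adjusted p = 1.3e-07), and Cxcl16, a receptor and chemokine (2.33 ± 0.29, adjusted p = 4e-05). Of 9 other C-type lectins, 4 were higher and 2 lower in input RNA at 16 h, and 4 were higher and 1 lower in footprints, with medians of 0.5 and 0.42, against the same 55.9% and 50.1%. The 2 input falls were Mrc1 (-1.16 ± 0.41, adjusted p = 0.032) and Clec4a3 (-0.84 ± 0.26, adjusted p = 0.016), and 0 remained with DESeq2 or without the untreated library. Clec12a, an inhibitory lectin, rose by 1.01 ± 0.11 in input (adjusted p = 1.7e-05). Cd69 went from 0 input counts in untreated cells to 66 at 90 min and 45 at 16 h. Cd69 and Clec2d, both among the rises at 16 h in each material, reached 10 counts in no library before 45 min. They passed the count filter only through the libraries where they were high, so their rises add no support to these counts.

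Of 28 lipid-handling genes 14 were higher and 6 lower in input RNA at 16 h, and 15 were higher and 5 lower in footprints, with medians of 0.47 and 0.56, beside 25.2% higher and 30.7% lower, and 25.7% and 24.4%, of all genes. The cholesterol exporter Abca1 rose by 2.75 ± 0.28 (adjusted p = 8.8e-06) and the lipid droplet gene Plin2 by 2.17 ± 0.13 (adjusted p = 1.4e-07) in input. Angptl4, an inhibitor of lipoprotein lipase, fell by 2.49 ± 0.34 on the log2 scale (adjusted p = 8.1e-05). A list of 17 tested genes held inhibitory receptors, their relatives, relatives of Cd101 and tetraspanin partners, mostly of the immunoglobulin family. In input RNA at 16 h 8 were higher and 5 lower, and in footprints 9 were higher and 3 lower. The medians were 0.3 and 0.5, against that same background. The tetraspanin genes Cd9 (1.71 ± 0.089, adjusted p = 3.8e-08) and Cd81 (-0.99 ± 0.13, adjusted p = 4.3e-05) are among the input calls. Lilr4b rose by 5.75 ± 0.17 (adjusted p = 5.2e-10), Siglec1 by 4.78 ± 0.14 (adjusted p = 5.2e-10) and Cd274 by 3.87 ± 0.32 (adjusted p = 1.3e-06) in input. Cd33 (-2.78 ± 0.13, adjusted p = 1.4e-08) and the inhibitory receptor genes Pirb (-1.90 ± 0.35, adjusted p = 0.00067) and Cd300a (-1.17 ± 0.13, adjusted p = 1.2e-05) fell in input, as Cd101 did.

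Within 90 min the calls in input RNA were fewer. Higher and lower genes numbered 9 and 6 for lectin signalling, 5 and 0 for other scavenger receptors, 3 and 0 for other lectins, 4 and 3 for lipid handling and 4 and 3 for the inhibitory receptor list, of 33, 13, 9, 28 and 17 tested. Of all genes 15.9% were higher and 10.5% lower, and the lipid-handling counts are near those shares. The lower genes of lectin signalling numbered 3 without the 75 min or the 90 min library, and those of the inhibitory receptor list 1 without the 15, 75 or 90 min library. Among lipid-handling genes the cholesterol exporter Abcg1 fell by 1.28 ± 0.13 on the log2 scale (adjusted p = 9e-05) and the lipoprotein lipase gene Lpl rose by 1.03 ± 0.11 (adjusted p = 8.9e-05). Clec5a, a lectin that signals through Tyrobp, rose by 0.6 ± 0.11 (adjusted p = 0.0011). The other lectins called higher were Cd69 and Clec2d, which passed the count filter only through the libraries where they were high. Among the 9 rises of lectin signalling, Egr2 and Egr3 held under 10 input counts in untreated cells and at 15 min. Their input met the count filter only through later libraries, where it was higher, so these rises add no support to that count.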

How the data were processed

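Whole-number read counts per gene were deposited by the authors for 16 libraries, 8 of input and 8 of footprints. The table also held a normalised signal, the counts divided by a size factor per library, per the file headers, which was not tested. Per the submitters' processing notes, Bowtie 0.12.8, DESeq2 1.18.1 and mm10 were used. For strand, features and multi-mapping reads, the sources used here do not give the handling. Every deposited library summed to 6702930 to 6702932 counts.

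The deposited counts were fitted with edgeR 4.0.16 in R 4.3.3 (TMM scaling, glmQLFit, glmQLFTest), keeping genes that reached 10 counts in 4 or more of 8 input and 4 or more of 8 footprint libraries. Terms were linear and quadratic in minutes, with a separate term for 16 h, leaving 4 residual degrees of freedom for changes and 7 for mean density. The size within 90 min is the greatest distance of the curve, at a sampled time, from its 0 min value. Density models held the time point as a block, since a lysate gave both materials, per the labels' protocols. DESeq2 1.42.0, other scalings, curves and filters, and fits without each library were alternatives. The fitting code was tested on simulated data. Each p-value measures the scatter of single libraries about a curve. Ratio intervals cover counting error at 95%, since no molecular identifiers are named. Named genes were the members, up to 4 called genes of largest change per list, and 3 most correlated genes per member. Fcer1g, Syk, Card9, Tyrobp, Clec4a3, Cd69, Adgre1, Csf1r, Cd9, Cd81, Pirb, Cd300a, Lum, S100a8, Lck, Dcstamp, Mmp9, Nfatc1 and Adipor2 were named for their role or after their values were seen. Some genes that met the rule are not reported here. The members and lists were chosen with earlier results of these data known.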

Additional observations from a re-analysis of the deposited data

How the results depend on the processing

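Of 780 fitted member values recomputed under alternatives, 738 kept their direction and their side of the threshold and 24 reversed. With their direction kept, 16 lost and 2 gained a call. Among reversals, scaling by total counts gave Scarb1 input within 90 min -0.13, and its single-library input ratio at 90 min, not among the 780, turned to 0.922. Clec4e input from 90 min to 16 h was -0.64 on a straight line in time and -0.33 on its square root, and its footprints 0.07 with a cubic curve. Msr1 density within 90 min was -0.06 with size factors, DESeq2 or a linear term and -0.18 with total counts. The main size, 0.09, belonged to a sampled time before 90 min, and the main fitted value at 90 min was also -0.06. Clec4e density within 90 min was -0.82 with a cubic curve, a reversal that also gained a call (adjusted p = 0.0026). Scarb1 density at 16 h was -0.01 with size factors, DESeq2 or the square root of time, 0 with total counts and -0.04 with a cubic curve. Msr1 mean density was -0.03 with total counts, a reversal that also lost its call (adjusted p = 0.53). The cause was not tested.

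Leaving out a library in turn gave -0.02 to 0.03 for Scarb1 input within 90 min, 0 to 0.29 for Clec4e input from 90 min to 16 h, -1.08 to 0.28 for Cd36 density within 90 min, -0.10 to 0.12 for Msr1 density within 90 min and -0.06 to 0.05 for Scarb1 density at 16 h. It gave 0 to 1 members with a density change within 90 min. A cubic curve gave 1, and total counts left 2 of 6 members with a called mean density. With no replicate block the mean density of Clec4e was 0.38 (adjusted p = 0.068). Without the pairing the other members kept their calls. Over all genes, calls within 90 min ranged from 1585 (without the 90 min library) to 2854 (total counts) around 2520 in input, and likewise from 1268 to 3348 around 1951 in footprints. Density calls at 16 h, 38 in all, were 24 with no pairing and ranged from 6 (without the untreated pair) to 122 (without the 30 min pair). Footprint calls at 16 h were 3119 without the untreated library and 4774 with it. Total counts moved the median of all genes from -0.02 to -0.17 in input and from -0.04 to -0.32 in footprints within 90 min. Low counts limit Clec4n throughout and Cd101 at 16 h.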
